A study of Rattus norvegicus with 36 samples.

Results

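Livers of male Harlan Sprague Dawley rats given 9.4 mg/kg of TBBPA.DBPE were compared with livers of rats given the vehicle. TBBPA.DBPE is the bis(dibromopropyl ether) of tetrabromobisphenol A, an additive flame retardant rich in bromine. The members were taken from the sample labels alone: 6 animals at 9.4 mg/kg and 6 vehicle animals, which make up 12 of the 36 arrays of the series. The other 24 arrays hold 6 animals each at 0.1, 0.94, 94.3 and 943 mg/kg. All animals were male, were 7 weeks old when dosing began, ate the same diet and received corn oil by gavage at 5 mL/kg on 5 consecutive days, so the vehicle animals carry the oil and the handling too. The left liver lobe was taken 1 day after the last dose, and 1 array was run per animal. The series asked which transcripts differ between each dose and vehicle at a false discovery rate of 5%.

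Rat liver reacts to many fat-soluble chemicals through ligand-activated receptors that switch on genes of drug metabolism. The aryl hydrocarbon receptor drives Cyp1a genes, CAR and PXR drive Cyp2b and Cyp3a genes, and PPARalpha drives genes of fatty acid oxidation. The liver also holds resident macrophages, called Kupffer cells, and lymphocytes, whose genes are read in the same tissue extract. Hepatic genes of the circadian clock, bile acid synthesis and fasting follow the time of day and the last meal.

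Values are log2 expression levels per probe set, and a difference is the mean of the dosed animals minus that of the vehicle animals on this scale. Array medians of the 12 arrays lay between 4.60 and 4.63, and the correlation between any 2 of them was between 0.989 and 0.996. The median correlation was 0.994 within a group and 0.994 between the groups. Vehicle replicate 1 stood apart on the first principal component, at 38.3 where the other 11 animals lay between -9.14 and 11.1, and its median correlation with the other arrays was the lowest, at 0.992. Values without this animal are given beside many, but not all, of the counts, genes and lists that it moved. Of the 18 hepatocyte markers listed, 15 were measured, none was below the array medians, and their mean level was 12.38 ± 0.05 (SD, n = 6) in vehicle and 12.36 ± 0.05 (SD, n = 6) in dosed livers.

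No transcript passed the test at 9.4 mg/kg. Of 31042 probe sets, 0 (0%) had an adjusted p under 0.05 in the limma model, and the smallest adjusted p was 0.75. Without adjustment, p was under 0.05 for 685 probe sets with a higher level (2.21%) and 821 with a lower level (2.64%). Over single genes, 360 of 14217 were higher at this unadjusted level (2.53%) and 293 lower (2.06%). An unmoderated linear model also called 0 probe sets after adjustment and found 1528 at an unadjusted p under 0.05. Every dosed animal lay above the vehicle range for 29 probe sets (0.0934%) and below it for 28 (0.0902%). Without vehicle replicate 1 these were 44 and 57, and the unadjusted counts were 538 higher and 627 lower.

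**Figure D1:**
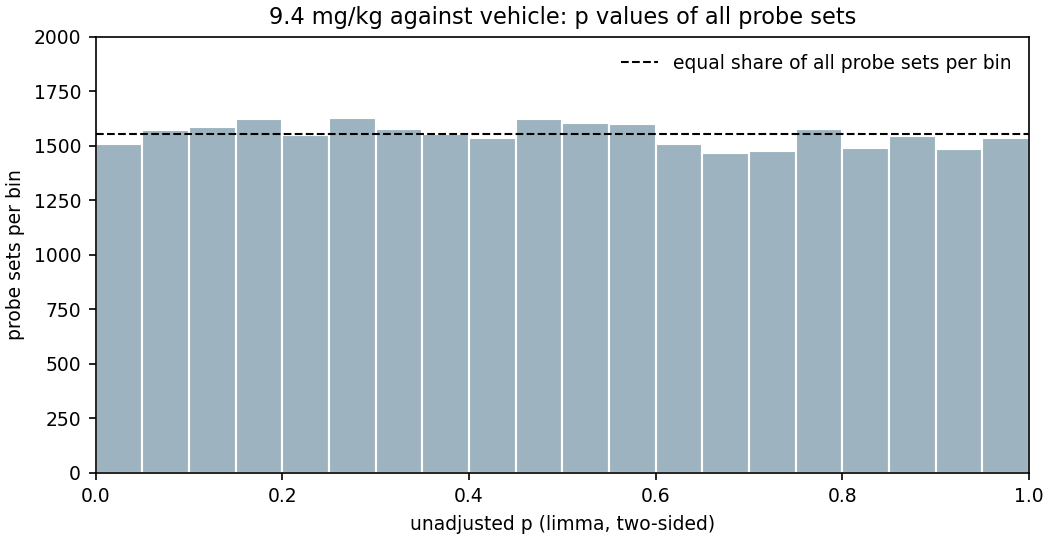
Unadjusted p of all 31042 probe sets in bins of 0.05 (x axis) and the number of probe sets per bin (y axis). The lowest bin holds 1506 probe sets, 4.85% of all, and the dashed line is an equal share of all probe sets per bin.

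The spread between animals was small enough to bound the measured difference of most probe sets. Those with low levels are counted too, and they understate differences. The median standard error of a difference was 0.0831, and the 95% interval excluded a 2-fold difference for 99.6% of probe sets and a 1.5-fold difference for 97.8%. The median SD among animals was 0.139 in vehicle and 0.132 at 9.4 mg/kg. Over all 14217 genes the median difference was 0.0024, with quartiles of -0.05 and 0.06, and 51.2% of genes were higher. This is the background against which the counts of each gene list stand.

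Slco4a1, a membrane carrier of organic anions and thyroid hormones, had the smallest p of all genes. Its lowest, median and highest levels were 3.81, 3.97 and 4.01 in vehicle livers and 4.16, 4.31 and 4.40 in dosed livers. The groups did not overlap. The difference was 0.36 (1.28-fold, SE 0.0733), with an adjusted p of 0.75 in limma. Both means lie below the array medians, so the probe set is dim, and a second probe set for the gene, with a vehicle mean of 4.02, differed by 0.02 (SE 0.0874). The means at the other doses were 4.20, 4.10, 4.20 and 4.11 in order of dose, all above the vehicle mean of 3.94, and all comparisons with vehicle share those 6 vehicle animals.

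The other genes that were higher with the smallest p belong to several processes. Siva1, a mediator of apoptosis, was at 6.49, 6.64 and 6.76 (lowest, median, highest) in vehicle and 6.78, 6.85 and 7.09 in dosed livers. Every dosed animal lay above the vehicle range, and the difference was 0.23 (SE 0.0577), while a second Siva1 probe set differed by 0.08 (SE 0.0734). Ddx39a, an RNA helicase of mRNA export, also did not overlap: it lay between 6.57 and 6.80 in vehicle and between 6.82 and 7.07 in dosed livers, a difference of 0.27 (SE 0.0789). Dph7, an enzyme that makes the diphthamide residue of elongation factor eEF2, differed by 0.24 (SE 0.0629) and overlapped in 2 dosed animals. Rpp30, a protein subunit of the RNA-cleaving enzyme RNase P, was higher by 0.22 (SE 0.0614), and Trmt12, which takes part in the modification of a tRNA, by 0.31 (SE 0.0962). All 12 genes of this group had an adjusted p of at least 0.75.

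Krt10, a keratin known mainly from skin, had the widest difference of those 12 genes. Vehicle livers were at 5.79, 6.18 and 6.95 and dosed livers at 5.88, 7.43 and 7.56 (lowest, median, highest). The dosed animals did not form 1 group: 4 were above the vehicle range, replicate 2 was just inside it at 6.82, and replicate 6 was at 5.88. The difference was 0.86 (1.82-fold, SE 0.263), and 1.10 without replicate 6. S100a4, a calcium-binding protein found in macrophages and fibroblasts, was higher by 0.46 (SE 0.139), and by 0.36 without vehicle replicate 1, whose level of 5.40 was the lowest. Reck, a membrane-bound inhibitor of matrix metalloproteases, was higher by 0.38 (SE 0.11), with 5 of 6 dosed animals above the vehicle range. Rasa4, which switches off Ras signalling, was higher by 0.35 (SE 0.106) and Slc25a36, a mitochondrial nucleotide carrier, by 0.26 (SE 0.0781). Asphd2 was higher by 0.24 (SE 0.0652) at a dim level.

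Among genes with a lower level, Cep135, a scaffold protein of the centriole, had the smallest p. Its levels were 3.99, 4.19 and 4.37 in vehicle and 3.32, 3.79 and 4.29 in dosed livers (lowest, median, highest), and 5 of 6 dosed animals lay below the vehicle range. The difference was -0.40 (SE 0.097) with an adjusted p of 0.98. Leaving out dosed replicate 3, the animal at 4.29, gave -0.50 with an adjusted p of 0.0457, the 1 call of any run that left out 1 animal. Over 21 alternatives its adjusted p ranged from 0.0457 to 1, and the next lowest was 0.701. Its probe set is dim, and the list of centriole and cilium genes had 12 of 25 members higher and a median difference of -0.0014.

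Ddx31, an RNA helicase of the nucleolus, was the 1 gene among the 12 lower genes whose groups did not overlap. It lay between 5.14 and 5.51 in vehicle and between 4.67 and 5.12 in dosed livers, a difference of -0.31 (SE 0.0808). Gpi, the enzyme that interconverts the phosphates of glucose and fructose, was lower by 0.24 (SE 0.0677). Acacb, the acetyl-CoA carboxylase of the mitochondrial surface that restrains fatty acid oxidation, was lower by 0.34 (SE 0.0981) at a dim level. Slc30a1, a zinc exporter, was lower by 0.35 (SE 0.103), and Dyrk2, a protein kinase, by 0.29 (SE 0.0789). The 3 other Dyrk2 probe sets differed by -0.17, -0.28 and -0.15. Klk1c8, a tissue kallikrein of a family with closely similar members, was lower by 0.28 (SE 0.0702) and Mfsd4b2l2 by 0.32 (SE 0.0835), both at levels below the array medians. Cnst, Exoc1, a subunit of the exocyst, and Abhd12, a lysophospholipase, were lower by 0.27, 0.30 and 0.19. Other probe sets differed by -0.0049 and -0.08 for Cnst and by -0.11, -0.30 and -0.04 for Exoc1. Without vehicle replicate 1, Cnst was lower by 0.17 and Abhd12 by 0.14.

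**Figure D2:**
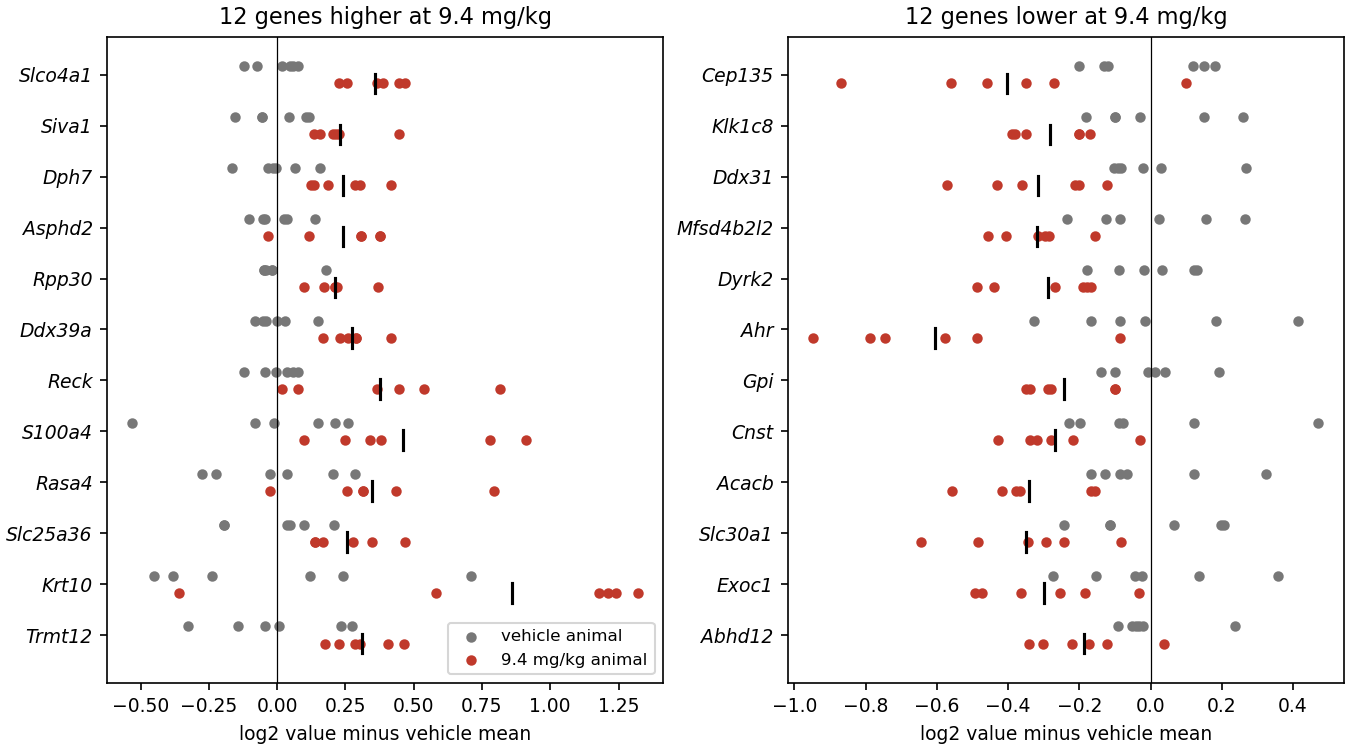
Log2 value of each animal minus the vehicle mean (x axis) for 12 higher and 12 lower genes, selected and ordered by p (y axis, lowest p uppermost); grey points are vehicle animals, red points 9.4 mg/kg animals and black bars the dosed means. The groups are apart for Slco4a1, Siva1, Ddx39a and Ddx31, while 2 dosed animals lie inside the vehicle range for Krt10 and 1 for Cep135.

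Genes outside this selection also had groups that did not overlap, and 3 of them were chosen after their values were seen. Slc37a4, the transporter that brings glucose 6-phosphate to the enzyme that releases glucose, was at 10.71, 10.80 and 10.88 in vehicle and 10.59, 10.64 and 10.68 in dosed livers. Its level is high and its animals lie close together, and the difference was -0.16 (SE 0.0518, adjusted p = 0.98). Mtr, the methionine synthase, was higher by 0.24 (SE 0.0774), with levels up to 5.02 in vehicle and from 5.02 in dosed livers. Grb10, an adaptor that binds the insulin receptor, was lower by 0.15 (SE 0.0686) at a dim level, and its other probe sets differed by 0.06 and -0.02.

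The aryl hydrocarbon receptor itself was among the lower genes. Ahr was at 4.42, 4.69 and 5.16 (lowest, median, highest) in vehicle and 3.80, 4.09 and 4.66 in dosed livers, with 5 of 6 dosed animals below the vehicle range. The difference was -0.60 (1.52-fold lower, SE 0.168, adjusted p = 0.98), and it was between -0.71 and -0.52 with any 1 animal left out. The dosed mean of 4.14 lies below the array medians, and the vehicle mean of 4.75 lies just above them. A second Ahr probe set, with a vehicle mean of 4.49, differed by -0.14 (SE 0.0878). The means at the other 4 doses were 4.56, 4.64, 4.65 and 4.58, so the lowest mean was the one at 9.4 mg/kg. Against the mean of 0.94 and 94.3 mg/kg, Ahr was lower by 0.50 (SE 0.145), with an unadjusted limma p of 0.00144 and an adjusted p of 0.816.

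Cyp1a1, the classic target of this receptor, was higher in every dosed animal than in any vehicle animal. Vehicle levels were 3.60, 3.91 and 4.03 and dosed levels 4.03, 4.09 and 4.15; the highest vehicle animal and the lowest dosed animal have the same value at 2 decimals. The difference was 0.22 (1.16-fold, SE 0.0778), with an unadjusted limma p of 0.00866 and an adjusted p of 0.98, and 0.16 without vehicle replicate 1. The probe set is dim. Means at the other doses were 4.0, 4.02, 4.11 and 4.22 against 3.88 in vehicle, and the difference from the neighbouring doses was 0.03. Cyp1a2, which is abundant in normal liver, differed by -0.07 (95% interval -0.21 to 0.06), Cyp1b1 by 0.15 (SE 0.0854) and Tiparp, a target that feeds back on the receptor, by 0.11 (SE 0.156), or 0.18 without vehicle replicate 1. Of 9 measured members of this list, 5 were higher and the median difference was 0.0063. That median lay between -0.04 and 0.06 with any 1 animal left out and was 0.11 in the brighter 50% of probe sets.

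Most other receptor targets were bounded closely. Of 40 response genes listed, 33 were measured, and for 24 of these the 95% interval lay inside a 1.5-fold difference in either direction. Cyp3a23-3a1 and Cyp3a2, targets of PXR, differed by -0.10 (95% interval -0.27 to 0.08) and -0.04 (95% interval -0.13 to 0.05). For the PPARalpha target Cyp4a1 the difference was -0.12 (95% interval -0.45 to 0.21), and for the NRF2 target Nqo1 it was 0.20 (95% interval -0.04 to 0.43). The list of CAR and PXR targets had 7 of 22 members higher, with a median difference of -0.03, and 0 members at an unadjusted p under 0.05. The list of NRF2 targets had 14 of 24 higher, with a median of 0.02. Without vehicle replicate 1, the CAR and PXR list had 9 of 22 higher with a median of -0.01, the NRF2 list 17 of 24 with a median of 0.07, and Cyp3a23-3a1 differed by -0.06. No probe set names Cyp2b1 or Cyp2b2 alone, and these CAR targets were not analysed here.

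The list with the largest median difference was the interferon response. Interferons are signals of virus defence that act through STAT and IRF proteins on genes with a shared promoter element. Of 33 measured members, 31 were higher against 51.2% of all genes, and the median difference was 0.32 against 0.0024. Only 2 members, Stat2 (0.19, SE 0.0787) and the chemokine Cxcl11 (0.22, SE 0.0975), had an unadjusted limma p under 0.05 in this direction, where the share over all genes is 2.53%, and 0 passed after adjustment. A second Stat2 probe set differed by 0.04 (SE 0.0827), and without vehicle replicate 1 the count was 1, with Cxcl11 at an unadjusted p of 0.0661 in limma. The members are not independent, since they move together from animal to animal.

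The element is shown in the promoters of 4 members, since it is the sequence feature that genes of this response are known for. The 4 genes were chosen after their values were seen. Each line gives the 250 bases before the start of the gene, 5′ to 3′ in the direction of the gene, from RefSeq on build GRCr8. The motif searched was GAAANNGAAA, on both strands (TTTCNNTTTC on the other), and capitals mark its matches. Oas1a, which makes a messenger against viral RNA, is at chr12:41330216-41330465 on the + strand and holds 2 overlapping matches. Irf7, the transcription factor that amplifies the response, is at chr1:205800024-205800273 on the - strand. Ifit3, a virus restriction factor, is at chr1:241527076-241527325 on the + strand, and Irgm, a GTPase of defence inside cells, at chr10:33742579-33742828 on the - strand.
Oas1a: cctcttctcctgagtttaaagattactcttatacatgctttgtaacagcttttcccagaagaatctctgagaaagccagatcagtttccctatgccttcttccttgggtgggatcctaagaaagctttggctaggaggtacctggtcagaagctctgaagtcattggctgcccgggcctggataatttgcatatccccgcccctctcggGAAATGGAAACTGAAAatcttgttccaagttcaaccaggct
Irf7: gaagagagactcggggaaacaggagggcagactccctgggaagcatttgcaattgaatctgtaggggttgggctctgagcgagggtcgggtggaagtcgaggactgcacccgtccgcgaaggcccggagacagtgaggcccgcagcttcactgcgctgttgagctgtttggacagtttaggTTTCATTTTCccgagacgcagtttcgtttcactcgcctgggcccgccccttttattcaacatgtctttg
Ifit3: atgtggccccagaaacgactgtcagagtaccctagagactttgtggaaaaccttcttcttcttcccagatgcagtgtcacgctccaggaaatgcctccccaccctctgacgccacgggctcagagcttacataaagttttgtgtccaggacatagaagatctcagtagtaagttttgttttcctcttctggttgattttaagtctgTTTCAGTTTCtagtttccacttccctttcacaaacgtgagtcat
Irgm: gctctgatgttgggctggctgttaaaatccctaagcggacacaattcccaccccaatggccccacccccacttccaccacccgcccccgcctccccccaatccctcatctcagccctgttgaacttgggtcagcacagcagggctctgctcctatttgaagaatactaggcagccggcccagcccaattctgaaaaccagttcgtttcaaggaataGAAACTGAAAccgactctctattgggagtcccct
The motif was present in 16 of the 26 interferon genes with a promoter in the table (61.5%) and in 992 of 27457 promoters of all genes (3.61%). The median difference was 0.31 over the 16 genes with a match and 0.33 over the 10 without.

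The values by animal show how the groups differed. Oas1a was at 3.93, 5.33 and 5.82 in vehicle and 5.19, 5.53 and 6.29 in dosed livers (lowest, median, highest), a difference of 0.51 (SE 0.436). Irf7 was at 6.04, 7.23 and 7.78 in vehicle and 7.20, 7.35 and 7.95 in dosed livers, a difference of 0.44 (SE 0.375). The medians lie close together and the lowest vehicle values lie far below every dosed animal. Ifit3 differed by 0.33 (SE 0.374) and Irgm by 0.44 (SE 0.26). Rtp4, a chaperone of receptors that is induced by interferon, was at 6.32, 8.45 and 9.08 in vehicle and 7.93, 8.71 and 9.42 in dosed livers, a difference of 0.80 (SE 0.585). The differences without vehicle replicate 1 were 0.42 for Oas1a, 0.32 for Irf7, 0.16 for Ifit3, 0.28 for Irgm and 0.47 for Rtp4.

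The mean level of the 33 genes was 5.94 in vehicle replicate 1, 6.04 in replicate 5, and between 6.62 and 7.09 in the other 4 vehicle animals. The 6 dosed animals lay between 6.61 and 7.28, and 2 of them were above the vehicle range. Without vehicle replicate 1 the median difference was 0.18, and without vehicle replicate 2 it was 0.44. Every other group also held low animals: the lowest list mean was 5.89 at 0.1, 5.91 at 0.94, 6.02 at 94.3 and 5.88 at 943 mg/kg, against 6.61 at 9.4 mg/kg. Against the mean of 0.94 and 94.3 mg/kg, 30 of 33 members were higher with a median of 0.29, and 4 had an unadjusted limma p under 0.05 with a higher level, against 3.22% of all genes in this contrast. It uses the same dosed animals.

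Genes of antigen presentation by MHC class II, the molecules with which macrophages, dendritic cells and B cells show peptides to T cells, were also lowest in vehicle replicate 1. Of 9 measured members, 8 were higher, with a median difference of 0.30 and 0 members at an unadjusted p under 0.05. RT1-Da was at 8.67, 9.38 and 9.77 in vehicle and 9.26, 9.76 and 9.99 in dosed livers. The difference was 0.41 (SE 0.242), and 0.28 without vehicle replicate 1. Cd74, the invariant chain of these molecules, differed by 0.34 (SE 0.231), or 0.21 without vehicle replicate 1. The list mean was lowest in vehicle replicate 1, at 6.91, where the other 11 animals lay between 7.28 and 8.10. Without that animal the median difference was 0.17.

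**Figure D3:**
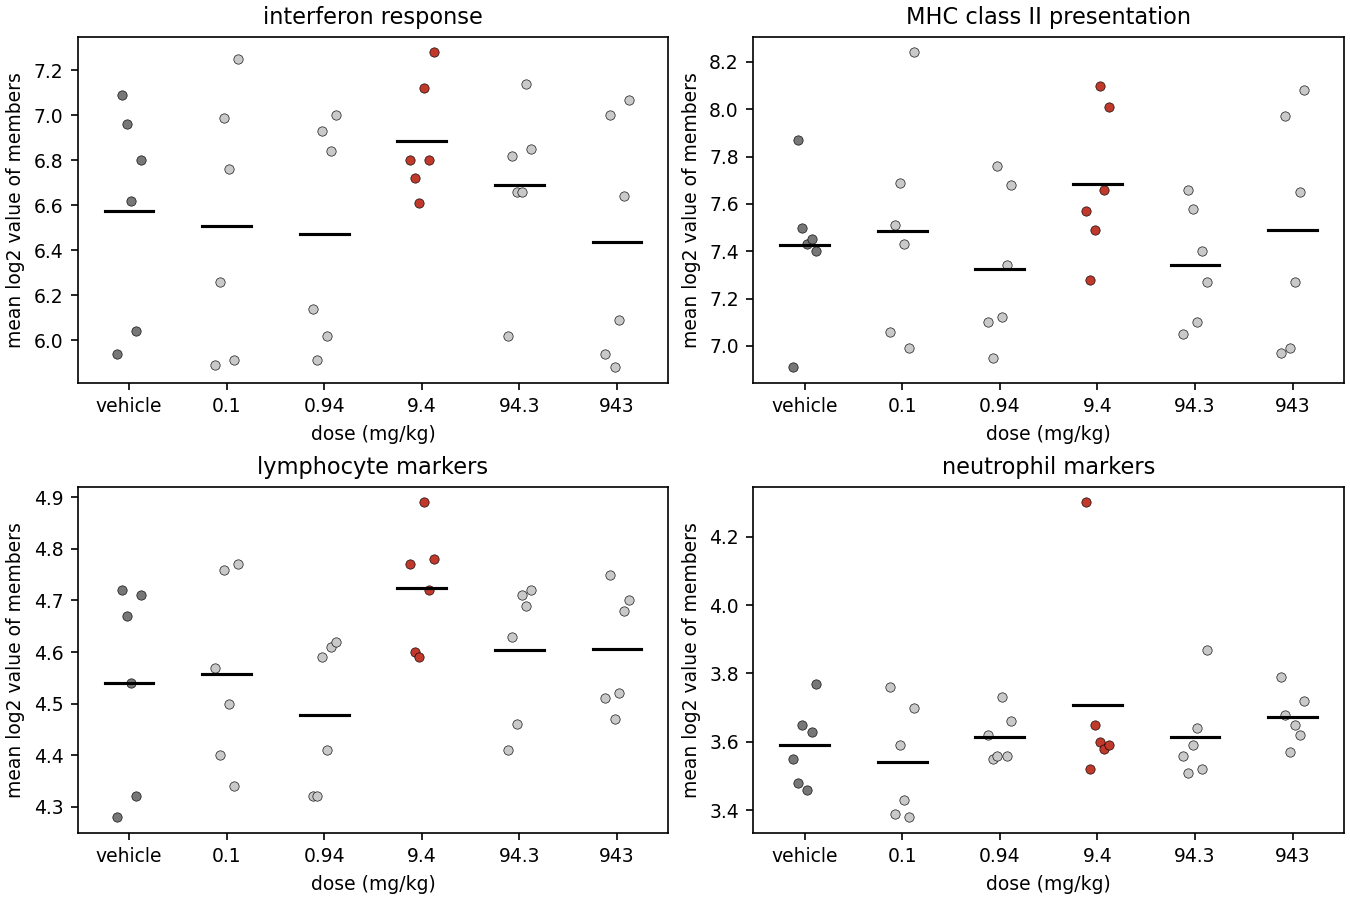
Mean log2 level of the measured members of 4 gene lists (y axis) in each animal of the 6 groups (x axis, dose in mg/kg); points are animals, red points those at 9.4 mg/kg, and bars group means. The interferon list has animals near 6 in every group except 9.4 mg/kg, where the lowest is at 6.61, and 1 animal at 9.4 mg/kg stands at 4.30 in the neutrophil list.

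Most lymphocyte markers were higher. The lymphocyte list had 16 of 19 members higher, a median difference of 0.17 and 5 members with a higher level at an unadjusted limma p under 0.05, against 2.53% of all genes. Of the 19, 11 are below the array medians. Gzma, a protease of killer lymphocytes, was at 4.21, 5.13 and 5.76 in vehicle and 5.17, 5.69 and 5.85 in dosed livers. The difference was 0.55 (SE 0.237), and 0.38 without vehicle replicate 1. Gzmb differed by 0.33 (SE 0.148), Lck, the kinase next to the T cell receptor, by 0.21 (SE 0.089), and Cd3e, a chain of that receptor, by 0.21 (SE 0.099), while second probe sets differed by 0.14 for Gzmb and -0.01 for Cd3e. Cd6, a T cell surface protein chosen after its values were seen, had every dosed animal at or above the highest vehicle animal at 2 decimals and differed by 0.17 (SE 0.0746). The list mean ranged from 4.28 to 4.72 in vehicle and from 4.59 to 4.89 in dosed livers, with 3 dosed animals above the vehicle range; without vehicle replicate 1 the median was 0.15 and 0 members had an unadjusted p under 0.05. In a tissue extract, more cells of a type and more RNA per cell cannot be told apart.

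The Kupffer cell list had 11 of 13 members higher, with a median difference of 0.13 that was 0.08 without either vehicle replicate 1 or 5. Its animals at 9.4 mg/kg lay between 8.43 and 8.66, all inside the vehicle range of 7.94 to 8.69, in which replicates 5 and 1 were lowest. Adgre1, a surface receptor of macrophages, was at 5.59, 6.38 and 6.80 in vehicle and 6.50, 6.65 and 6.97 in dosed livers, a difference of 0.39 (SE 0.187), and 0.24 without vehicle replicate 1. The endothelial list had 7 of 15 members higher, with a median of -0.02, and the stellate cell list 14 of 18, with a median of 0.08 that was 0.0011 without dosed replicate 3. Markers of tissues that lie outside the liver were mostly dim, with 9 of 11 pancreatic and 10 of 13 adipose and muscle markers below the array medians.

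The neutrophil genes S100a8 and S100a9 and the chemokine Cxcl1 were highest in 1 dosed animal. S100a8 and S100a9, which form the calcium-binding complex of neutrophils, were at 6.11 and 7.52 in dosed replicate 1, and at no more than 4.32 and 5.74 in the other 5 dosed animals. Cxcl1, which draws neutrophils, was at 3.74, 4.17 and 5.32 in vehicle and 4.06, 5.53 and 8.68 in dosed livers, where 8.68 was again replicate 1. Its difference was 1.27 (2.42-fold, SE 0.586) and 0.68 without that animal. The neutrophil list had 7 of 11 members higher and a median of 0.12, which was 0.03 without that animal. Mmp8 and Mmp9, proteases of neutrophils, were dim and differed by 0.16 (SE 0.0865) and -0.15 (SE 0.0782), with their highest values in dosed replicate 5 and vehicle replicate 3. Il1b, an early inflammatory cytokine, was higher by 0.34 (SE 0.163), with 4 dosed animals above the vehicle range, and Ccl2, which draws monocytes, by 0.41 (SE 0.207), or 0.20 without dosed replicate 4. The acute phase list, which holds these cytokines beside the plasma proteins of inflammation, had 15 of 29 members higher and a median difference of 0.0015.

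In the cell cycle list, 36 of 45 members were higher, with a median difference of 0.10 and 4 members higher at an unadjusted limma p under 0.05, against 2.53% of all genes. That count was 1 without vehicle replicate 1. Aurkb, a kinase of chromosome segregation, differed by 0.38 (SE 0.163), or 0.19 without dosed replicate 4, Mki67, the common marker of dividing cells, by 0.37 (SE 0.164) and Birc5, which works with Aurkb, by 0.25 (SE 0.111). Pcna, the sliding clamp of DNA replication, was at 8.48, 8.60 and 8.70 in vehicle and 8.67, 8.72 and 8.80 in dosed livers, a difference of 0.13 (SE 0.0602). Of the 45 members, 21 are below the array medians. Dosed replicate 4 had the highest list mean, at 5.42, and without it the median was 0.04; the range was 4.80 to 5.26 in vehicle and 4.88 to 5.42 in dosed livers. The p53 list had 13 of 21 members higher with a median of 0.02. Without vehicle replicate 1, 14 of 21 were higher with a median of 0.04, and without vehicle replicate 5 the median was -0.0087. Zmat3 was higher by 0.15 (SE 0.0583), and the main targets Cdkn1a, Mdm2 and Ccng1 differed by -0.20 (SE 0.166), 0.0022 (SE 0.0986) and 0.04 (SE 0.0515); without vehicle replicate 1, Mdm2 differed by 0.09.

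**Figure D4:**
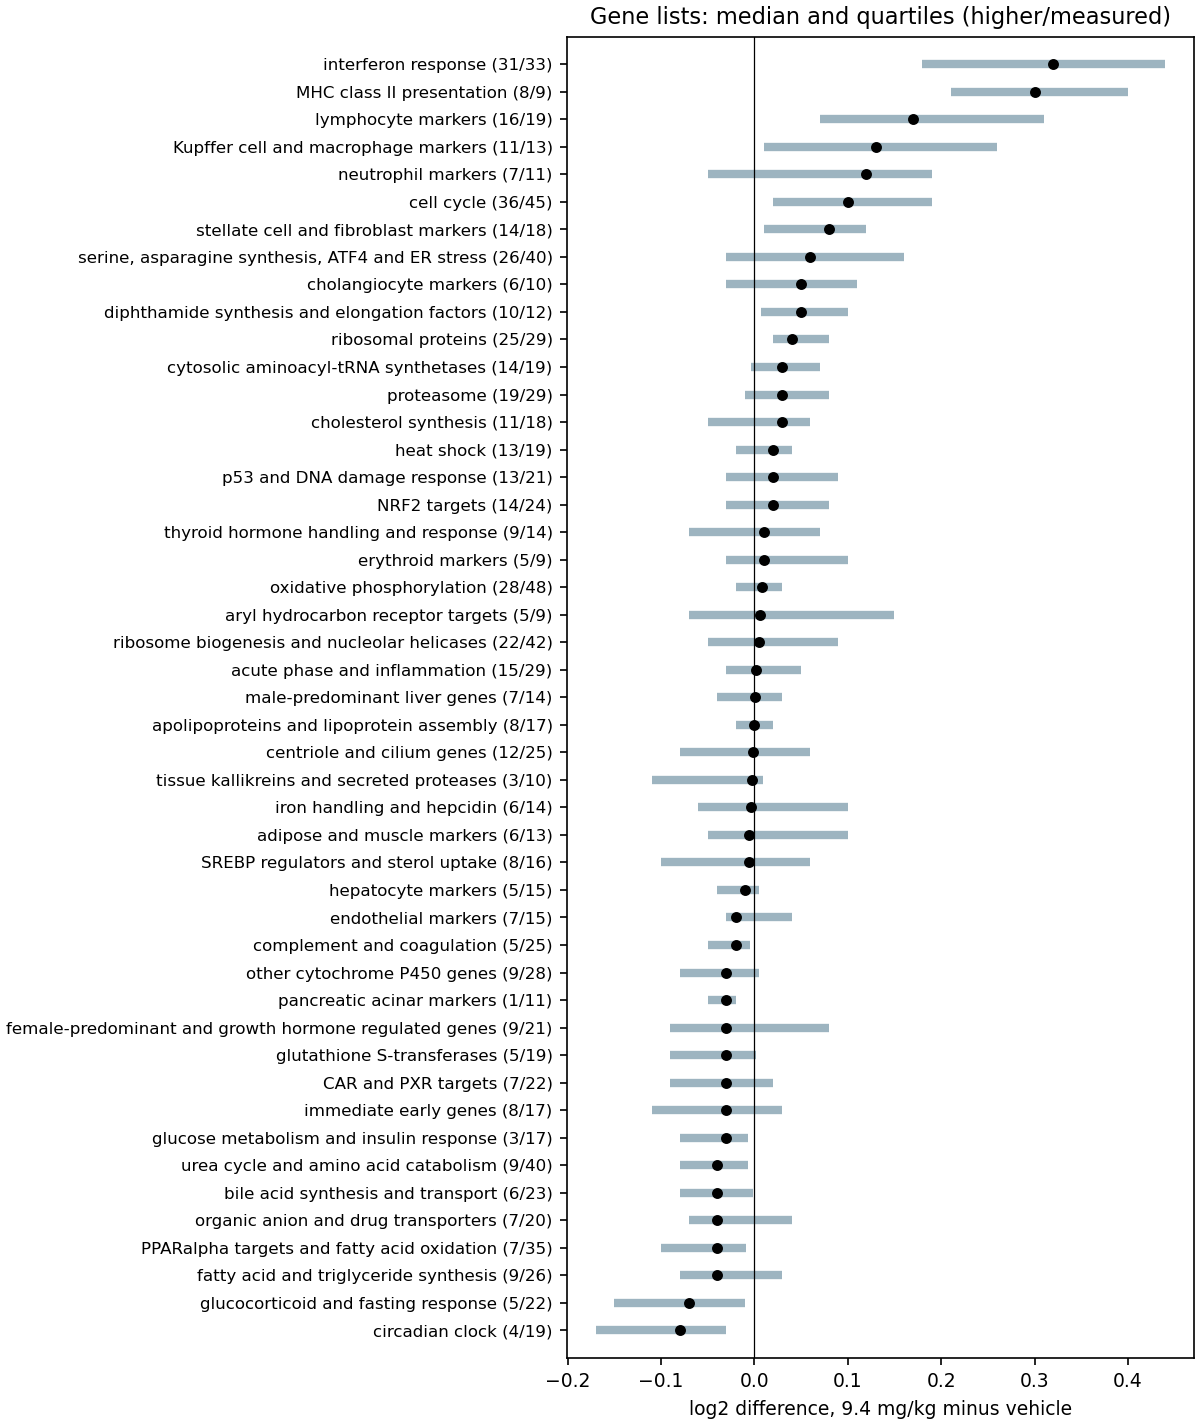
Median difference between 9.4 mg/kg and vehicle (x axis, log2 scale; points) with the quartiles of the members (bars) for 47 gene lists (y axis), with the number of members higher and measured in brackets. The interferon list is at 0.32 and the MHC class II list at 0.30; the other 45 lists lie between -0.08 and 0.17.

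The clock list stood at the other end, with 4 of 19 members higher and a median difference of -0.08. Nfil3, a repressor that is active in the opposite phase to the activators Dbp, Tef and Hlf, was at 7.03, 7.29 and 7.52 in vehicle and 7.26, 7.71 and 8.43 in dosed livers, a difference of 0.48 (SE 0.19). Nr1d1, the nuclear receptor that represses both Bmal1 and Nfil3, was at 6.22, 6.47 and 6.72 in vehicle and 5.82, 6.22 and 6.42 in dosed livers, a difference of -0.28 (SE 0.133). Both groups overlap in both genes. Dbp differed by -0.19 (SE 0.284), or -0.07 without vehicle replicate 1, Per1 by -0.15 (SE 0.0795) and Per3 by -0.17 (SE 0.111), with 0.06 for a second Per3 probe set. Neither the labels nor the files give the order or the time of day of necropsy. Dosed replicate 4 had the lowest list mean, at 6.11, and without it the median was -0.05.

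Several lists of hepatocyte metabolism had more members lower than higher by small amounts. In the PPARalpha and fatty acid oxidation list, 7 of 35 members were higher and the median was -0.04, or -0.0032 without vehicle replicate 4. Ehhadh, a peroxisomal enzyme of fatty acid oxidation, was at 10.54, 10.69 and 11.04 in vehicle and 10.41, 10.51 and 10.58 in dosed livers, a difference of -0.25 (SE 0.107), while Cpt1a, the gate of mitochondrial oxidation, differed by -0.03 (SE 0.118), and a second Cpt1a probe set by -0.23 (SE 0.144). In the bile acid list, 6 of 23 members were higher and the median was -0.04. Cyp8b1, which sets the share of cholic acid, was lower by 0.25 (SE 0.1) and Slc27a5, which joins bile acids to coenzyme A, by 0.20 (SE 0.0868). Cyp7a1, the rate-limiting enzyme, ranged from 8.82 to 11.20 in vehicle and from 8.60 to 11.07 in dosed livers and differed by -0.20 (95% interval -1.04 to 0.64), so it is poorly bounded; without vehicle replicate 1 it differed by -0.10.

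The urea cycle and amino acid list had 9 of 40 members higher (median -0.04) and the glucocorticoid and fasting list 5 of 22 (median -0.07). The cholesterol synthesis list had 11 of 18 higher (median 0.03), and its sign rested on single animals: the median was -0.05 without dosed replicate 2 and 0.09 without vehicle replicate 1. Beside it, the fatty acid synthesis list had 9 of 26 higher (median -0.04), in which Fasn differed by 0.19 (SE 0.213). Among further cytochrome P450 genes, Cyp2c23, an epoxygenase of arachidonic acid, did not overlap between groups: it lay between 12.37 and 12.57 in vehicle and between 12.21 and 12.36 in dosed livers, a difference of -0.17 (SE 0.0635). Cyp2a2, a male-predominant steroid hydroxylase of the rat, differed by -0.13 (SE 0.048), and Cyp26b1, which degrades retinoic acid, by 0.50 (SE 0.229), while a second Cyp26b1 probe set differed by 0.05 (SE 0.0705). Thrb, the main thyroid hormone receptor of liver, was lower by 0.20 (SE 0.0688), and by 0.13 without dosed replicate 1; its 3 other probe sets differed by -0.40, -0.26 and -0.03. Slc47a1, an exporter of organic cations, was lower by 0.25 (SE 0.0985) at a dim level.

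Most genes of protein synthesis were higher by small amounts. Ribosomal protein genes were higher in 25 of 29 cases, with a median of 0.04, and Rps6 differed by 0.13 (SE 0.0545). The diphthamide and elongation factor list had 10 of 12 higher, with a median of 0.05; Eef1b2, a nucleotide exchange factor of elongation, differed by 0.16 (SE 0.0563), and the list mean was above the vehicle range in 4 of 6 dosed animals. Without dosed replicate 4, the highest of these, the medians of both lists were 0.02. The nucleolar list had 22 of 42 higher, with Wdr75 at 0.28 (SE 0.0975) beside Ddx31 at -0.31. A second Wdr75 probe set went the other way, at -0.24 (SE 0.116). In the contrast with the neighbouring doses, 2 of 29 ribosomal protein genes and 4 of 12 of the diphthamide list were higher.

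Only 5 probe sets differed 2-fold or more, all of them higher at 9.4 mg/kg, and 3 of these have no gene in the probe table. Among these 3, a probe set with a difference of 1.44 (SE 0.93) had close medians. It was at 3.55, 7.80 and 8.32 in vehicle and 7.03, 7.91 and 9.23 in dosed livers (lowest, median, highest). Another, with 1.54 (SE 0.891), was at 4.16, 7.76 and 9.53 in vehicle and 8.37, 8.69 and 9.52 in dosed livers. The last differed by 1.05 (SE 0.347). Beside Cxcl1, the named one was Siglec5, a sialic acid receptor of myeloid cells. It was at 1.91, 2.33 and 3.50 in vehicle and 2.25, 3.78 and 5.61 in dosed livers. The difference was 1.42 (2.67-fold, SE 0.486, unadjusted limma p of 0.00609), and 1.63 without vehicle replicate 1. Both group means are below the array medians, and 3 dosed animals were above the vehicle range.

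The genes with the largest pooled spread within groups varied in both groups, but not always to the same extent. The SD in vehicle and dosed livers was 0.87 and 1.89 for Bcl6 and 2.09 and 1.57 for Cdh17. Abhd3, a phospholipase, was near 7 in vehicle replicates 3 and 4 (7.11 and 6.89) and in dosed replicate 1 (7.87), and no higher than 2.74 in the other 9 animals. Cdh17, a cadherin, ranged from 4.76 to 9.43 in vehicle and from 5.92 to 9.33 in dosed livers. RT1-Bb, a class II chain, was at 6.17 and 5.93 in vehicle replicates 2 and 5, at 6.73 and 6.09 in dosed replicates 4 and 6, and no higher than 3.79 in the other 8. Bcl6, a repressor under growth hormone control, was at 9.12, 9.60 and 9.73 in dosed replicates 1, 4 and 5 and at most at 8.37 elsewhere, and its difference of 0.98 had an SE of 0.864. Onecut1, a liver transcription factor under growth hormone control, was at 6.70, 5.83 and 5.82 in those same 3 dosed animals and at 9.20 or more in the other 3, while vehicle replicates 5 and 6 were at 6.38 and 6.35. Ubd, Gadd45g, Fgf21 and Egr1, which answer to cytokines, stress or feeding, differed by -0.54 (SE 0.791), -0.22 (SE 0.579), 0.41 (SE 0.607) and -0.11 (SE 0.607). The differences without vehicle replicate 1 were -0.89 for Abhd3, 0.67 for Cdh17, -0.25 for RT1-Bb, 0.03 for Onecut1 and 0.11 for Gadd45g.

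**Figure D5:**
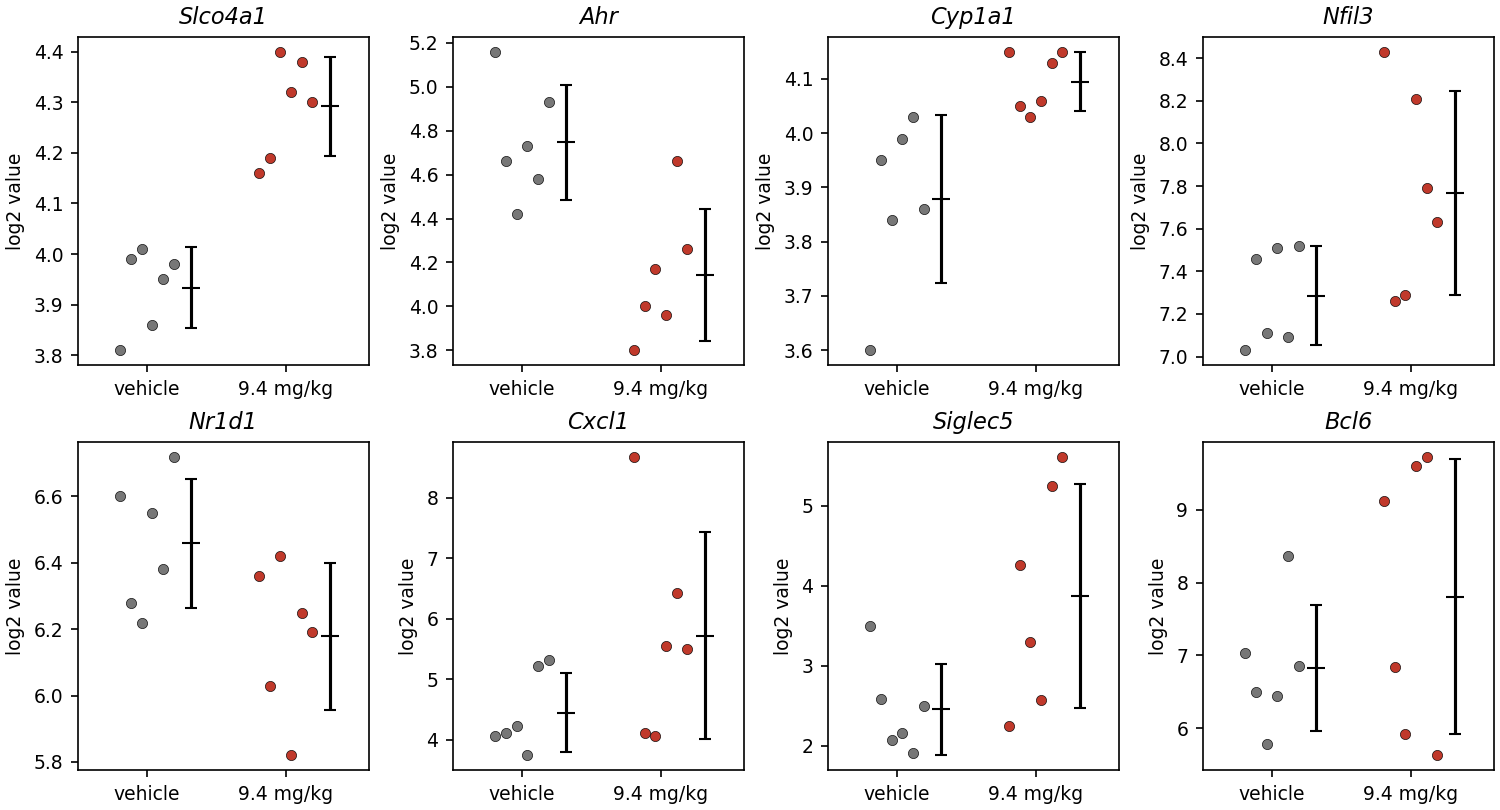
Log2 level (y axis, own scale in each panel) of 8 genes in each animal of the 2 groups (x axis); grey points are vehicle, red points 9.4 mg/kg, and bars the mean with its SD. Slco4a1 is separate between groups, Ahr is lower by 0.60, 1 dosed animal reaches 8.68 for Cxcl1, and 3 dosed animals lie above 9 for Bcl6.

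The neighbouring doses offered a difference between means without the vehicle animals, which still enter the variance of the model. Among the arrays compared here, replicate 2 at 0.94 mg/kg had the lowest median correlation with the others. Differences of genes and lists without it are not given. No probe set passed the test between 9.4 mg/kg and the mean of 0.94 and 94.3 mg/kg: 0 (0%) had an adjusted p under 0.05 in limma, and the smallest adjusted p was 0.542. At an unadjusted p under 0.05, 458 genes were higher (3.22%) and 390 lower (2.74%), and 48.6% of genes were higher at 9.4 mg/kg. Of the 5 genes selected by p in each direction, Ccl2 was higher by 0.73 (SE 0.179), S100a4 by 0.48 (SE 0.12), Bank1, a B cell adaptor, by 0.42 (SE 0.102), Slc26a6, an anion exchanger, by 0.22 (SE 0.0524) and Emp3 by 0.21 (SE 0.0524). Kat2a, a histone acetyltransferase, was lower by 0.30 (SE 0.0735), Ddx31 by 0.28 (SE 0.07) and Rbm14, an RNA-binding protein, by 0.24 (SE 0.0659). Dlg2, a scaffold protein of synapses, was lower by 0.21 (SE 0.0472) at a dim level. Tomm40, a channel of protein import into mitochondria, was lower by 0.19 (SE 0.0521). Ddx31 and S100a4 were thus selected in both contrasts, which share the 6 dosed animals. Krt10 was higher by 0.76 (SE 0.228) here, and Slc30a1 differed by 0.0048 (SE 0.0896), since its means were 6.35, 6.29, 6.30 and 6.43 at the other doses against 6.64 in vehicle.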

How the data were processed

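Liver RNA was measured on 1 array per animal, and the 12 arrays of the 9.4 mg/kg and vehicle groups were compared. The deposited log2 values were made by the authors with RMA (per the submitters' processing notes, which also name affy but no version). The series' design text names R/maanova, which was replaced by limma here.

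The 57 control probe sets were left out and all 31042 others entered the test. Of these, 20826 are paired with 1 gene by the probe table, 436 with several and 9780 with none, and 14217 genes result. A gene takes the values of its brightest probe set by the mean of the 36 arrays. One linear model held all 36 arrays and estimated each group's mean (limma 3.58.1 in R 4.3.3, moderated by eBayes), with two-sided p-values adjusted by Benjamini-Hochberg at a threshold of 0.05. SE and 95% intervals come from this model. A run on simulated data, with independent noise for each probe set, counted recovered changes and did not check the intervals. Precision is limited by how many animals there are. The alternatives changed the normalization, array weights, the variance model, the samples in the fit, the probe sets tested and the replicate block, and left out each animal in turn. "Dim" means both group means below 4.60, the lowest array median. Samples with the same replicate number did not deviate together from their group means (r from -0.030 to 0.050). The labels do not say what the numbers stand for, and these correlations cannot show whether they pair animals.

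The 47 gene lists were chosen with earlier results of these data known, while the animals were taken from the sample labels. Named genes are the 12 per direction with the smallest p, those with a 2-fold difference, up to 4 per list, 33 measured response genes, 5 per direction in the contrast with neighbouring doses and the 10 most variable, without symbols that only number a locus; others are said to be chosen after their values were seen, which also holds for Per3, Dbp, Oas1a, Irf7, Ifit3, S100a8, Rtp4, Irgm and Cd74. Figures were drawn with matplotlib 3.10.9.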

Additional observations from a re-analysis of the deposited data

Results flagged for a closer look

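Within the groups of 6 animals, the highest or lowest value was tested for its distance from the others by Dixon's criterion. Of 384 groups tested, 22 had such a value, and chance gives about 1 in 20. No explanation was tested.

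Dosed replicate 1 had the widest gap, for Abhd3 at 7.87. The same animal was high for S100a9 (7.52), S100a8 (6.11) and the mean of the neutrophil list (4.30), and had low values of Eef2k (4.54), the kinase of elongation factor eEF2, and of Lck (5.46).

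Dosed replicate 4 was high for Siva1 (7.09), Rbm14 (7.57) and the glutathione S-transferase list (10) and low for Cyp4a1 (10.17) and Sdha (10.29), a subunit of mitochondrial complex II. Dosed replicate 5 was low for Cep57 (5.80) and high for the bile acid list (9.63), and dosed replicate 3 was low for the proteasome subunit Psma5 (10.32).

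Among vehicle animals, replicate 1 was high for Abhd12 (6.77) and Ugt2b1 (12.18), replicate 6 for Ccl2 (5.23), replicate 2 for Ddx31 (5.51) and replicate 4 for Rpp30 (5.70). Replicate 5 was low for Cth (12.43) and Cyp3a2 (13.35), and replicate 4 for the erythroid list (5.16).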

How the results depend on the processing

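No alternative that kept all 12 animals gave a probe set with an adjusted p under 0.05, and neither did the contrast with the neighbouring doses under any alternative. Leaving out 1 animal gave 0 to 1 call, the 1 being Cep135 without dosed replicate 3. The replicate block, by numbers whose meaning the labels do not give, gave 0 calls, and 723 higher and 829 lower at an unadjusted p under 0.05. Fewer probe sets tested gave fewer at that level: 376 higher and 306 lower with 1 probe set per gene, and 385 and 398 in the brighter 50%. Counts with separate groups were 16 above and 12 below the vehicle range with 1 probe set per gene and 14 and 15 in the brighter 50%. They were 44 and 57 without vehicle replicate 1, and with any 1 animal left out 40 to 64 above and 51 to 87 below, where fewer samples make separation easier; settings that only alter the model give no such count.

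Of the list medians, few moved by more than the spread between animals. In the brighter 50% of probe sets the medians were 0.11 for aryl hydrocarbon receptor targets, 0.04 for pancreatic and 0.15 for adipose and muscle markers. With 1 animal left out, they were 0.02 for the diphthamide list, 0.02 for endothelial and -0.02 for cholangiocyte markers. Other shifts stayed within this limit, so it does not show that a median is stable. The interferon median fell from 0.32 to 0.18 without vehicle replicate 1. Many of the smaller list medians changed sign with 1 animal left out, among them those of cholesterol synthesis, NRF2 and aryl hydrocarbon receptor targets. The range was -0.17 to 0.10 for immediate early genes, -0.06 to 0.02 for fatty acid and triglyceride synthesis and -0.0087 to 0.04 for the p53 list.

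Of 158 named genes, 19 reversed under some alternative; none of them had passed the test, and the cause was not tested. Without vehicle replicate 1, Abcc3 was 0.00067, Angptl4 -0.09, Gadd45g 0.11 and Onecut1 0.03. With array weights, Angptl4 was -0.04, Gadd45g 0.21 and Onecut1 0.008, and a further quantile normalization gave -0.0052 for Angptl4. With the mean of all probe sets, RT1-Bb was 0.05, Thra -0.0037 and Txnrd1 -0.05. With 1 animal left out, the differences ranged from -0.14 to 0.00067 for Abcc3, -1.45 to 0.04 for Abhd3, -0.09 to 0.11 for Angptl4, -0.23 to 0.74 for Cdh17, -0.08 to 0.04 for Cpt1a, -0.47 to 0.08 for Cyp7a1, -0.02 to 0.04 for Dio1, -0.45 to 0.22 for Egr1, -0.03 to 0.71 for Fgf21, -0.67 to 0.11 for Gadd45g, -0.11 to 0.01 for Gclc, -0.04 to 0.09 for Mdm2, -0.67 to 0.22 for Onecut1, -0.10 to 0.07 for Pck1, -0.53 to 0.30 for RT1-Bb, -0.34 to 0.17 for Scd, -0.09 to 0.30 for Thrsp and -0.01 to 0.08 for Txnrd1.

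The number of animals bounds what can be seen, and dim probe sets understate differences. In the limma model, a p-value weighs a mean difference against a variance estimated from the animals of every group and moderated by eBayes. That variance rests on the spread between animals within all groups, not within the compared groups alone.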

Other observations

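Some listed genes that no section above described also had an unadjusted limma p under 0.05, and none passed after adjustment. In the stress lists, Cryab, a small heat shock protein, was higher by 0.32 (SE 0.12), Vldlr by 0.23 (SE 0.105), and Atf6, a sensor of the endoplasmic reticulum, lower by 0.18 (SE 0.0868). The other probe sets differed by 0.02, 0.41 and 0.18 for Vldlr and by -0.06 for Atf6. Of 40 members of the serine, asparagine and ATF4 list, 26 were higher with a median of 0.06, and Asns and Psat1 differed by 0.29 (SE 0.256) and 0.39 (SE 0.254). In the proteasome list, 19 of 29 members were higher with a median of 0.03, and Psmd12 was higher by 0.14 (SE 0.0614) and Psmd14 by 0.11 (SE 0.0517), with 0.33 and 0.09 for its other probe sets. Aco1, the cytosolic aconitase that senses iron, was lower by 0.14 (SE 0.0555), Mgst3 by 0.15 (SE 0.0685), Uroc1, an enzyme of histidine breakdown, by 0.15 (SE 0.0689) and F12, coagulation factor XII, by 0.12 (SE 0.0518). Adipoq, a marker of fat tissue, was higher by 0.20 (SE 0.0918) at a dim level.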
